A study of Homo sapiens with 15 samples.

Results

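Amino acids enter cells through solute carriers, membrane proteins grouped into families by sequence. Described here is the mRNA of 10 such carriers in K562 cells, an established line of human chronic myeloid leukaemia, across doses of martinostat, an inhibitor of histone deacetylases (HDACs, enzymes that remove acetyl groups from histones and other proteins). The set was built around SLC6A19, which was picked because its mRNA was among the most reduced in these data. The other 9 are SLC6A9, SLC7A5, SLC3A2, SLC7A1, SLC1A5, SLC1A4, SLC38A1, SLC38A2 and SLC43A1. All 10 symbols were found among the 60649 genes of the count table, each under a single identifier, and all 10 passed the filter on low counts that left 23711 genes for testing. Because SLC6A19 was chosen by its fall, its values are given as a description with no test.

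The 5 groups held 3 libraries each, labelled as biological replicates: untreated K562 cells, and K562 cells exposed for 24 h to martinostat at 0.15, 0.25, 0.5 or 1 μM. All groups are the same line, with no genetic change given in the labels, and the control is described as untreated rather than as vehicle-treated. Poly(A) RNA was sequenced as paired ends and counted per gene, with 23755510 to 32805574 counts per library. Levels are given as CPM, the count scaled to a common library size after TMM factors, and changes as log2 fold changes with a standard error (SE). These factors are meant to hold the bulk of genes level between libraries. The median over all genes tested was still above untreated cells, by log2 fold changes of 0.28 to 0.34. Calls rest on the quasi-likelihood test of edgeR, with p adjusted over all genes tested by the Benjamini-Hochberg method and a threshold of 0.05. The SE was worked back from this test, as the size of the change divided by the square root of its F statistic. The third libraries at 0.25 and 0.5 μM stood apart from the rest on the third principal component (67.3 and 72.8, against 14.7 or lower in the others). In bulk RNA, fewer cells with a transcript and less transcript per cell cannot be told apart.

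SLC6A19 carries neutral amino acids with sodium across the brush border of the small intestine and kidney tubule, and its loss causes Hartnup disorder. SLC7A5 imports large neutral amino acids such as leucine as a heterodimer with SLC3A2, in exchange for glutamine, which cells take up through carriers such as SLC1A5. Leucine and other amino acids inside the cell are sensed by mTORC1, a kinase complex that promotes growth, and a shortage of amino acids raises translation of ATF4, a transcription factor that acts on many carrier genes through a C/EBP-ATF response element.

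The sequences before the starts of 4 carriers are shown because their mRNA moved differently with dose: SLC6A19 and SLC6A9 fell furthest, SLC7A5 fell less, and SLC38A2 was not called lower at the high doses. Each is the 250 bases before a RefSeq transcription start (GRCh38.p14), 5′ to 3′ on the strand of the gene, with matches to the motifs named below in capitals. The window of SLC6A19 is chr5:1201345-1201594 on the plus strand. Those of SLC6A9 (chr1:44031463-44031712), SLC7A5 (chr16:87869508-87869757) and SLC38A2 (chr12:46372774-46373023) are on the minus strand, and that of SLC6A9 reaches a few bases into the gene as annotated here.
SLC6A19: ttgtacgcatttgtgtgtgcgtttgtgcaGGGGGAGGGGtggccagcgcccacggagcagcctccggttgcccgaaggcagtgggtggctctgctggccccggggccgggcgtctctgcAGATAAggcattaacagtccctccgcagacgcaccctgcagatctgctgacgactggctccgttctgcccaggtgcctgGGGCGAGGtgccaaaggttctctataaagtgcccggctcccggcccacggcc
SLC6A9: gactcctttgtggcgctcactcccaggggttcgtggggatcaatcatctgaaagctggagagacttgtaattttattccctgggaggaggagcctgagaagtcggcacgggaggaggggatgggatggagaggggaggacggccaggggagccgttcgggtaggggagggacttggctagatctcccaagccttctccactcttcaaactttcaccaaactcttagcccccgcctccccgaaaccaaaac
SLC7A5: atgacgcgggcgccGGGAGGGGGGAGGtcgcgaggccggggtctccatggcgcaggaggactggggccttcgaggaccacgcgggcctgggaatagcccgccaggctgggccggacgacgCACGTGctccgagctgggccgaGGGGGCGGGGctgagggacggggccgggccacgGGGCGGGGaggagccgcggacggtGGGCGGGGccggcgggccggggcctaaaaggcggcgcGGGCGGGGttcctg
SLC38A2: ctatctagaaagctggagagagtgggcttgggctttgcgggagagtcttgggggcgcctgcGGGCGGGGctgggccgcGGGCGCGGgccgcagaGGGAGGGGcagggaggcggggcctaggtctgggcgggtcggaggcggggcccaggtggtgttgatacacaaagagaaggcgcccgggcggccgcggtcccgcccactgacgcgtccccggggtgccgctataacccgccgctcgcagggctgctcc
Both strands were searched for 4 motifs, and 35116 RefSeq windows of this length give the background. The core of the C/EBP-ATF response element, TGATGNAA, was in 3.14% of those windows. The E-box CACGTG was in 6.34%. The motif of GATA factors, searched as AGATAA, was in 9.17%. The CACCC-type motif, CCNCNCCC, was in 53.4%. No match shared letters with a match to another of these motifs, but overlapping matches to the same motif were counted separately. SLC6A19 held a GATA match beginning 131 bases before its start and 3 CACCC-type matches, beginning 221, 219 and 52 bases before it. Those at 221 and 219 share letters. SLC7A5 held an E-box and 7 CACCC-type matches, some of which overlap, SLC38A2 held 3 CACCC-type matches, and SLC6A9 held none of these letters. Among the 17 windows of the 10 carriers, some of which have several annotated starts, 14 held a CACCC-type match, 3 an E-box, 1 the GATA motif and 1, at a further start of SLC1A5, the C/EBP-ATF core. These are matches of letters only, and no binding was measured.

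Most of the carriers fell with dose, and no further change was called past 0.5 μM. Against untreated cells, 8 of the 9 tested carriers were called lower at 0.15 μM, where 19.4% of all genes tested were called lower. The count was 7 of 9 at 0.25 μM (24.8% of all genes), 8 of 9 at 0.5 μM (27.6%) and 8 of 9 at 1 μM (27.5%). None was called higher at any dose, while 31.9%, 37.4%, 39.4% and 38.8% of all genes were called higher with rising dose. The libraries of 9, 8, 9 and 9 of the 9 did not overlap those of untreated cells, as was true of 63.2%, 67.5%, 69.9% and 74.9% of all genes tested. The median log2 fold change of the 9 was -0.59, -1.46, -2.35 and -2.18 with rising dose, beside 0.28, 0.32, 0.34 and 0.32 over all genes tested. All 9 had means of 34.8 CPM or more in untreated cells. The genes tested include some that passed the filter only through treated libraries and can hardly be called lower. The shares and medians over all genes are therefore not those of genes of like level. The count at 0.15 μM depended on scaling: 1 carrier, SLC7A5, was called lower with library totals in place of TMM, and 3 (SLC7A5, SLC3A2 and SLC38A1) with TMM factors computed on abundant genes alone, those of 10 CPM or more. Leaving out untreated replicate 3 left 5. With either scaling, SLC1A4 was called higher at 0.15 μM and SLC38A2 at 0.5 and 1 μM, while the number called lower at 0.5 and at 1 μM was again 8 of 9.

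**Figure D1:**
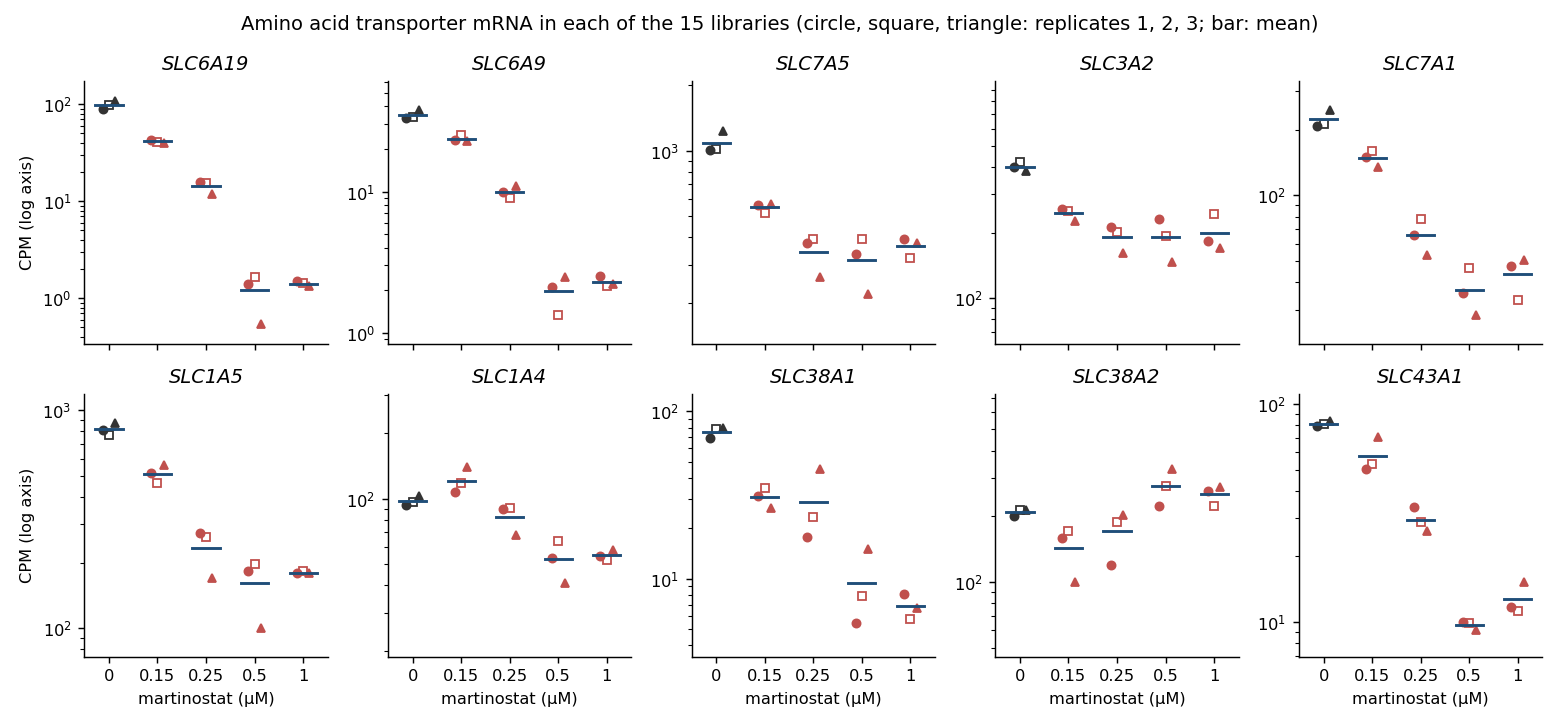
CPM on a log axis (vertical) in each library against martinostat dose in μM (horizontal, with 0 for untreated cells), 1 panel per carrier, with circles, squares and triangles for replicates 1, 2 and 3 and a bar for the mean. The SLC6A19 libraries run from 88.5 to 108 CPM in untreated cells down to 1.33 to 1.49 CPM at 1 μM, while SLC38A2 at 1 μM lies between 224 and 271 CPM, above its untreated libraries.

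SLC6A19 (ENSG00000174358.16, hg38 chr5:1201595-1225111) measured 88.5, 97.4 and 108 CPM in the untreated libraries. It measured 43.1, 40.8 and 39.7 CPM at 0.15 μM and 15.6, 15.4 and 11.8 CPM at 0.25 μM. At 0.5 μM it was 1.41, 1.67 and 0.544 CPM, and at 1 μM 1.49, 1.42 and 1.33 CPM. The groups did not overlap down to 0.5 μM, whereas the 3 libraries at 1 μM lay within the range of those at 0.5 μM. The log2 fold changes were -1.25, -2.78, -6.39 and -6.11, so the mean at 1 μM was 69.4-fold lower than in untreated cells. At 1 μM, 38 to 42 reads per library were still counted. Of 10128 genes averaging 10 CPM or more over the libraries, 3 fell further, and this fall lay between those of the microRNA host gene MIR223HG (-6.71) and CBFA2T3 (-5.79), a transcriptional corepressor. Among all 23711 genes tested, those of low level included, its place from the largest fall was 25. At 0.15 μM it was 406 of the 10128 and 728 of the 23711.

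SLC6A9, which takes up glycine, belongs to the same family and showed the next largest fall. Its untreated libraries held 33.1, 33.4 and 37.8 CPM. They were 23.2, 25.2 and 22.7 CPM at 0.15 μM, 9.93, 8.95 and 11.0 CPM at 0.25 μM, 2.12, 1.34 and 2.47 CPM at 0.5 μM, and between 2.14 and 2.52 CPM at 1 μM. Each group lay below the preceding one down to 0.5 μM, and the 2 highest doses overlapped. The log2 fold change was -0.55 at 0.15 μM (SE 0.17, adjusted p = 0.0128) and reached -3.93 at 1 μM (SE 0.20, adjusted p = 6.72e-12). The first of these was -0.49 with an adjusted p of 0.0595 without untreated replicate 3. Of the exon bases of SLC6A9, 7.87% lie under an exon on the opposite strand.

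SLC7A5 and SLC3A2, the transport and the anchoring chain of the leucine carrier, both fell, and most of that fall was present at the lowest doses. SLC7A5 was 1003, 1021 and 1226 CPM in untreated cells, 564, 518 and 566 CPM at 0.15 μM and 375, 393 and 263 CPM at 0.25 μM. It stayed at 334, 392 and 221 CPM at 0.5 μM and 395, 321 and 376 CPM at 1 μM. Every treated library lay below every untreated one, and the 3 higher doses overlapped one another. The log2 fold change was -0.98 at 0.15 μM (SE 0.20, adjusted p = 0.000404) and -1.57 at 1 μM (SE 0.20, adjusted p = 1.29e-06). From 0.15 to 0.25 μM it fell by 0.68 on the log2 scale (adjusted p = 0.0303), a call that was lost when any of the 3 libraries at 0.15 μM or replicate 3 at 0.25 μM was left out (-0.72 to -0.50). From 0.15 to 1 μM it fell by 0.59 (adjusted p = 0.0195), a call lost without 0.15 μM replicate 1 (-0.58) or 1 μM replicate 2 (-0.51). Of its exon bases, 5.69% lie under the opposite strand. Its pseudogene copies SLC7A5P1 and SLC7A5P2 are listed at 0, but 100% of their exon bases lie under another gene of the same strand, so those zeros do not show that the copies are silent.

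SLC3A2 measured 398, 420 and 382 CPM in untreated cells. It fell to 257, 251 and 227 CPM at 0.15 μM, 212, 202 and 162 CPM at 0.25 μM, 232, 194 and 146 CPM at 0.5 μM and 183, 243 and 170 CPM at 1 μM. The treated libraries again lay wholly below the untreated ones. The log2 fold change was -0.71 at 0.15 μM (SE 0.18, adjusted p = 0.00246) and -1.01 at 1 μM (SE 0.18, adjusted p = 5.63e-05), and no step between doses was called. The ratio of SLC7A5 to SLC3A2 within a library, per kb of exon and so free of library scaling, was 3.38, 3.26 and 4.31 in untreated cells. At 0.15 μM it was 2.95, 2.77 and 3.34, which overlapped untreated cells (exact permutation p = 0.2). It was 2.37, 2.61 and 2.17 at 0.25 μM, 1.93, 2.71 and 2.03 at 0.5 μM and 2.90, 1.77 and 2.97 at 1 μM. These 3 groups did not overlap the untreated one, with an exact two-sided permutation p of 0.1, the smallest that 3 against 3 libraries allow, and 0.109 after adjustment over the 12 ratios tested.

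SLC43A1, another carrier of large neutral amino acids, which works without a partner chain, ended further below its untreated level. It was 79.4, 80.8 and 83.7 CPM in untreated cells and 50.1, 52.8 and 70.2 CPM at 0.15 μM. Its libraries held 33.6, 28.7 and 26.2 CPM at 0.25 μM, 10.0, 9.87 and 9.19 CPM at 0.5 μM and 11.7, 11.2 and 15.3 CPM at 1 μM. No neighbouring groups overlapped, and the 1 μM libraries lay above those at 0.5 μM. The log2 fold change was -0.49 at 0.15 μM (SE 0.16, adjusted p = 0.0123), a call lost without 0.15 μM replicate 1 (-0.40) or 2 (-0.43), and -2.67 at 1 μM (SE 0.17, adjusted p = 7.91e-11).

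SLC7A1, which imports arginine and lysine, measured 209, 213 and 247 CPM in untreated cells, 150, 159 and 135 CPM at 0.15 μM and 66.0, 78.1 and 53.6 CPM at 0.25 μM. At 0.5 μM it was 35.6, 46.3 and 28.3 CPM, and at 1 μM 47.3, 33.3 and 50.8 CPM. Each step down to 0.5 μM was called, with log2 changes of -0.59 (adjusted p = 0.0134), -1.17 (adjusted p = 0.000715) and -0.84 (adjusted p = 0.00217). The first step was -0.51 with an adjusted p of 0.0615 without untreated replicate 3. At 1 μM it stood at a log2 fold change of -2.35 (SE 0.20, adjusted p = 4.77e-09).

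SLC1A5 and SLC1A4 both exchange alanine, serine and cysteine, and SLC1A5 also carries glutamine. SLC1A5 was 812, 772 and 877 CPM in untreated cells, 513, 461 and 561 CPM at 0.15 μM, 272, 262 and 170 CPM at 0.25 μM, 184, 197 and 100 CPM at 0.5 μM, and 179, 183 and 180 CPM at 1 μM. The third libraries at 0.25 and 0.5 μM were the lowest of their groups, and the groups at 0.25, 0.5 and 1 μM overlapped in part. The log2 fold change was -0.68 at 0.15 μM (SE 0.21, adjusted p = 0.0120) and -2.18 at 1 μM (SE 0.22, adjusted p = 6.18e-08), and the first was -0.61 with an adjusted p of 0.0530 without 0.15 μM replicate 2. The step from 0.25 to 0.5 μM was -0.55 (adjusted p = 0.0597). It was called in the fit of these 6 libraries with replicate number as a block (-0.59, adjusted p = 0.000195), and without 0.25 μM replicate 3 (-0.71) or 0.5 μM replicate 2 (-0.72). Of its exon bases, 23.8% lie under an exon of the opposite strand.

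SLC1A4 did not follow its relative at the lowest dose. It was 93.8, 96.3 and 103 CPM in untreated cells and 107, 118 and 139 CPM at 0.15 μM, where all 3 libraries lay above the untreated ones (log2 fold change 0.31, SE 0.16, adjusted p = 0.118). At 0.25 μM it was 90.1, 90.4 and 68.0 CPM, a log2 fold change of -0.24 that was not called and that turned to between 0.04 and 0.27 under 4 other settings. It was 53.6, 63.7 and 40.9 CPM at 0.5 μM and 54.6, 52.4 and 58.0 CPM at 1 μM, where it was called lower (-0.83, SE 0.16, adjusted p = 0.000184). The ratio of SLC1A5 to SLC1A4 per kb fell from 18.0, 16.7 and 17.7 in untreated cells to 10.0, 8.15 and 8.41 at 0.15 μM and 6.81, 7.26 and 6.47 at 1 μM, groups that did not overlap (exact permutation p = 0.1 each, the smallest possible).

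SLC38A1 and SLC38A2 both import glutamine and other small neutral amino acids with sodium, and their mRNAs parted with dose. SLC38A1 was 69.3, 78.4 and 79.2 CPM in untreated cells, 31.3, 34.8 and 26.3 CPM at 0.15 μM and 17.7, 23.4 and 45.0 CPM at 0.25 μM. It was 5.48, 7.91 and 15.1 CPM at 0.5 μM and 8.09, 5.77 and 6.73 CPM at 1 μM. The third libraries at 0.25 and 0.5 μM, which stand apart from the others, held the highest value of their groups. The log2 fold change was -1.29 at 0.15 μM (SE 0.34, adjusted p = 0.00495) and -3.46 at 1 μM (SE 0.37, adjusted p = 8.65e-07). With library totals the calls at 0.15 μM (-0.93, adjusted p = 0.0744) and 0.25 μM (-0.82, adjusted p = 0.0942) were lost.

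SLC38A2 was 200, 213 and 214 CPM in untreated cells and 159, 171 and 99.9 CPM at 0.15 μM. It was 120, 189 and 203 CPM at 0.25 μM, 223, 275 and 330 CPM at 0.5 μM and 261, 224 and 271 CPM at 1 μM. It lay below the untreated range in all 3 libraries at 0.15 μM and above it in all 3 at 0.5 and at 1 μM. The fall at 0.15 μM (log2 fold change -0.55, SE 0.21, adjusted p = 0.0360) lost its call without replicate 3 of that dose (-0.35) or without untreated replicate 1 (-0.58), 2 (-0.53) or 3 (-0.53), and under 4 other settings (-0.37 to -0.18). At 0.25 μM the log2 fold change was -0.29 and turned to between 0.13 and 0.25 under 3 other settings. At 0.5 μM the log2 fold change of 0.40 (adjusted p = 0.0964) was called when 0.15 μM replicate 3 (0.45), 0.25 μM replicate 3 (0.45) or 0.5 μM replicate 1 (0.53) was left out. At 1 μM it was 0.27 (SE 0.21, adjusted p = 0.261). The step from 0.25 to 0.5 μM was called higher (0.69, SE 0.21, adjusted p = 0.0167), and was 0.49 and not called without 0.25 μM replicate 1. From 0.15 to 1 μM SLC38A2 rose by 0.82 (SE 0.21, adjusted p = 0.00370), in 3 of 3 libraries and under every alternative run. The ratio of SLC38A2 to SLC38A1 per kb was 4.45, 4.18 and 4.16 in untreated cells, 7.81, 7.53 and 5.84 at 0.15 μM, 62.7, 53.5 and 33.6 at 0.5 μM and 49.7, 59.9 and 61.9 at 1 μM, with no overlap with untreated cells (exact permutation p = 0.1 each).

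**Figure D2:**
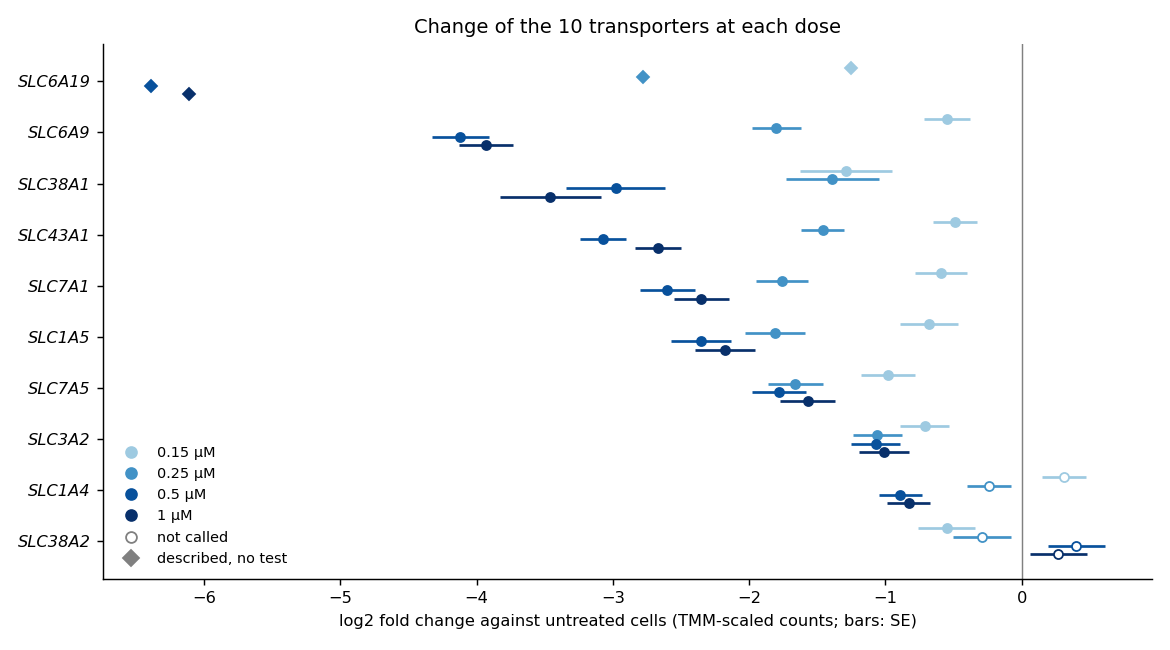
Log2 fold change against untreated cells (horizontal) for each carrier (vertical) at the 4 doses, from light to dark blue, with SE bars, white points where the carrier was not called and diamonds without bars for SLC6A19. The points at 0.5 and 1 μM lie close together for most carriers, from -6.39 and -6.11 for SLC6A19 to 0.40 and 0.27 for SLC38A2. They are furthest apart for SLC38A1 (-2.98 and -3.46) and SLC43A1 (-3.07 and -2.67).

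Levels between carriers can be compared only per length, here as CPM per kb of annotated exon. In untreated cells SLC1A5 (246 ± 15.9, SD, n = 3) and SLC7A5 (227 ± 26.1) had the highest levels, and their means differed by less than the SD of SLC7A5. SLC3A2 followed at 62.5 ± 2.99, then SLC38A2 (32.1 ± 1.14) and SLC7A1 (29.0 ± 2.65), whose means differed by slightly more than the SD of SLC7A1. SLC43A1 (23.1 ± 0.633), SLC6A19 (18.6 ± 1.84) and SLC1A4 (14.1 ± 0.711) were lower in turn, and SLC38A1 (7.55 ± 0.549) and SLC6A9 (6.63 ± 0.500) were lowest and near each other. At 1 μM SLC7A5 (76.5 ± 8.04) and SLC1A5 (54.2 ± 0.581) still led, SLC38A2 (38.7 ± 3.76) and SLC3A2 (31.1 ± 6.12) came next, and SLC6A19 was last at 0.268 ± 0.0157, below SLC6A9 at 0.436 ± 0.0389.

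The steps between doses show where the fall took place. From 0.15 to 0.25 μM, 6 of 9 carriers were called lower (7.32% of all genes): SLC6A9, SLC7A5, SLC7A1, SLC1A5, SLC1A4 and SLC43A1. None was called higher (4.96%). The call of SLC1A4 (-0.55) was lost without 0.15 μM replicate 2 (-0.58) or 3 (-0.40) or 0.25 μM replicate 3 (-0.41). From 0.25 to 0.5 μM, 5 of 9 were called lower (16.0% of all genes), led by SLC6A9 (-2.31, SE 0.20, adjusted p = 6.83e-08) and SLC43A1 (-1.61, SE 0.16, adjusted p = 5.38e-07), and 1, SLC38A2, was called higher (14.4%). SLC6A19 dropped by 3.61 on the log2 scale in this step. From 0.5 to 1 μM none of the 9 was called in edgeR, as for all genes (0.00%), with 372 genes at an unadjusted p under 0.05, and DESeq2 called 0 genes and limma 1. SLC43A1 (9.70 to 12.7 CPM, log2 change 0.39) was the only carrier among those 372. Over the whole range from 0.15 to 1 μM, 7 of 9 were called lower (23.1% of all genes) and SLC38A2 higher (21.5%), the exception being SLC3A2 (-0.30, adjusted p = 0.171).

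Over the 15 libraries, the genes whose log2 CPM followed SLC6A19 most closely, among 10127 others averaging 10 CPM or more, included KLF1, ARHGDIB, UCK2, IGF2BP1, WDR77, AQP10 and WSB2, with Pearson correlations from 0.996 to 0.992. KLF1, an erythroid transcription factor that binds CACCC motifs, went from 406 CPM in untreated cells through 185, 49.3 and 2.84 to 3.58 CPM at 1 μM. IGF2BP1, an RNA-binding protein, went from 708 to 26.8 CPM, and AQP10, a water and glycerol channel, from 68.0 to 4.62 CPM. WSB2, at the end of this list, fell less (130 to 29.4 CPM), since a correlation reads the shape of the dose curve and not its depth. Among the carriers the correlation with SLC6A19 was 0.984 for SLC43A1, 0.977 for SLC6A9, 0.957 for SLC7A1, 0.933 for SLC1A5, 0.907 for SLC1A4 and 0.901 for SLC38A1. It was 0.822 for SLC7A5, 0.762 for SLC3A2 and -0.612 for SLC38A2. These values describe 15 libraries that share 5 doses and their scaling.

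**Figure D3:**
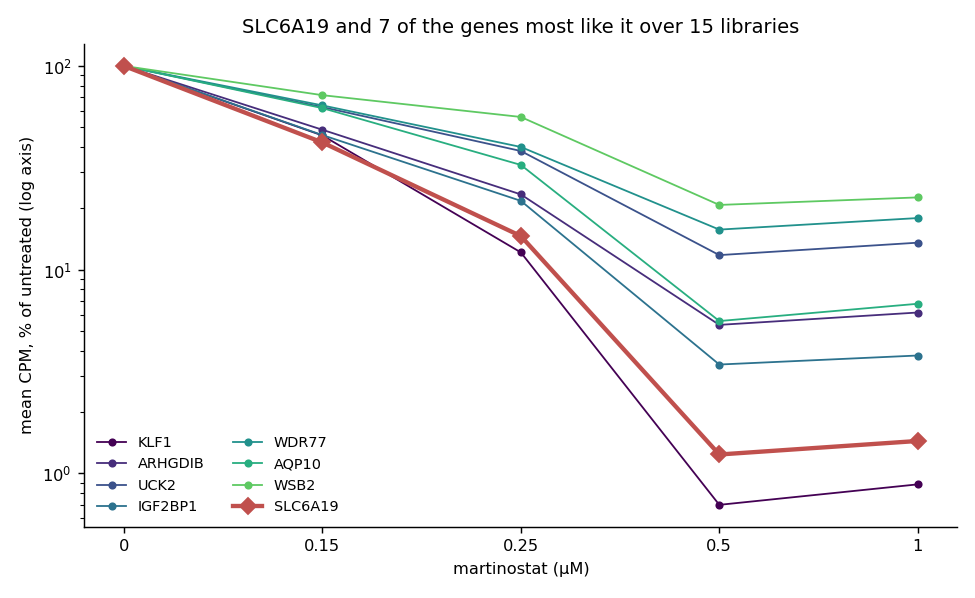
Mean CPM as a percentage of the untreated mean on a log axis (vertical) against martinostat dose in μM (horizontal) for SLC6A19 (red) and 7 of the genes with the highest correlation to it. All fall to 0.5 μM and level off, KLF1 from 406 to 3.58 CPM and WSB2 from 130 to 29.4 CPM at 1 μM.

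The genes around SLC6A19 on chromosome 5 moved in both directions. Of 19 others within 250 kb, 13 passed the filter, and at 1 μM 4 of these were called lower (27.5% of all genes tested), 8 higher (38.8%) and 1 (LINC02982) neither. Of the 8, 5 did not reach the filter level, the CPM that 10 counts make in a library of median size, in all untreated libraries, and passed through treated ones. TERT, the catalytic subunit of telomerase, fell from 41.0 ± 1.12 to 3.24 ± 0.317 CPM (log2 fold change -3.66, SE 0.21, adjusted p = 2.36e-11). CLPTM1L (-1.60, adjusted p = 2.68e-08) and the potassium-chloride cotransporter SLC12A7 (-1.06, adjusted p = 3.25e-06) also fell, as did the unnamed transcript ENSG00000287486, which lies across the end of TERT on the opposite strand and had at most 0.545 CPM in any group. In the other direction, NKD2, an inhibitor of Wnt signalling, rose from 9.72 ± 1.07 to 27.8 ± 0.870 CPM (1.51, adjusted p = 4.18e-08), and LPCAT1, a phospholipid-remodelling enzyme, rose by 0.78 (adjusted p = 0.00111). The unnamed ENSG00000286388 (1.71) and ENSG00000272347 (3.28) were also called higher. The long non-coding RNA LINC01511 had 4 counts over the untreated libraries and 43.9 ± 6.28 CPM at 1 μM, and the pseudogene MTCO2P32 had 0 and 165 counts. MTCO2P32 lies within the span of LINC01511 on the same strand, and whether its reads come from that transcript was not tested. The dopamine carrier SLC6A3 had 2 counts in untreated cells and 423 at 1 μM, a ratio of 187 (95% counting interval 51.5 to 1550). The nearest gene, SLC6A18, a relative of SLC6A19 that starts 0.27 kb past its end, went from 2 to 20 counts (ratio 8.85, interval 2.15 to 78.0). At 1 μM its libraries held 0.00, 0.138 and 0.558 CPM, the last with 16 of the 20 counts, and overlapped the untreated ones. Intervals cover counting error only.

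**Figure D4:**
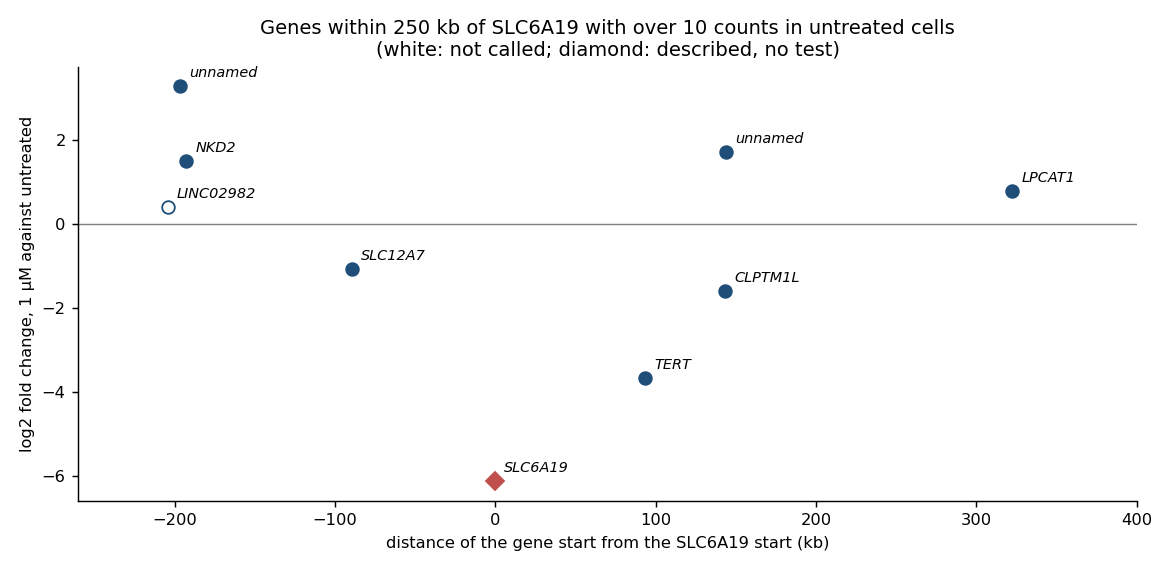
Log2 fold change at 1 μM against untreated cells (vertical) by distance of the gene start from the SLC6A19 start in kb (horizontal), for genes within 250 kb that had over 10 counts in untreated cells and at least 1 CPM in some group. SLC6A19 (diamond, described without a test) lies at -6.11 with TERT at -3.66, CLPTM1L at -1.60 and SLC12A7 at -1.06 below 0, and NKD2 (1.51) and LPCAT1 (0.78) above it.

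Of 40 other carriers of amino acids, 32 passed the filter, and at 1 μM 17 of them were called higher (38.8% of all genes tested) and 6 lower (27.5%). Of the 17, 12 did not reach the filter level in all untreated libraries and passed it through treated ones, where they are high. Of the 16 that reached it in all untreated libraries, 5 were called higher and 5 lower, and with at least 10 counts required in every library the number called higher was 7. The largest fall was that of SLC38A5, a glutamine and glycine carrier, which went from 337, 325 and 349 CPM in untreated cells to 45.1, 47.2 and 67.7 CPM at 0.15 μM and 6.99, 9.50 and 7.85 CPM at 1 μM (-5.38, SE 0.30, adjusted p = 1.08e-10). SLC7A11, which imports cystine in exchange for glutamate and also pairs with SLC3A2, fell from 23.1 ± 2.65 to 1.75 ± 0.303 CPM (-3.72, SE 0.31, adjusted p = 4.88e-09). SLC6A14 had 30 counts over the untreated libraries and 4 at 1 μM, and its call (adjusted p = 0.0294) was lost under library totals, TMM on abundant genes and limma, and without untreated replicate 1 (-2.80) or 2 (-2.59) or any 1 μM library (-2.44 to -3.35). Most of the carriers that rose were near 0 in untreated cells. SLC36A2 went from 0 to 415 counts, at least 122-fold higher, and SLC7A10 from 0 to 337 counts, at least 99.4-fold higher, with the floor set at 3 counts over the group. The glutamate carrier SLC1A6 went from 2 to 2245 counts, a ratio of 993 (95% counting interval 275 to 8203), and measured 22.1, 38.9 and 17.3 CPM at 1 μM.

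A further set of 3 carriers were named after their values were seen. SLC7A8, which like SLC7A5 pairs with SLC3A2, was 89.7, 98.0 and 103 CPM in untreated cells and 359, 379 and 439 CPM at 0.15 μM (2.02, SE 0.15, adjusted p = 3.44e-09). At 1 μM it was back at 91.2, 84.3 and 108 CPM, a log2 change of -2.05 from 0.15 μM (adjusted p = 4.07e-09). SLC7A6, a partner of SLC3A2 that carries arginine and neutral amino acids, fell from 53.8 ± 4.23 to 20.6 ± 1.97 CPM at 1 μM (-1.39, adjusted p = 4.46e-07). Of its exon bases, 55.6% lie under exons of the opposite strand, and without the strand setting of the counting its reads cannot be told apart from theirs. SLC43A2, the relative of SLC43A1, rose from 14.0 ± 1.86 to 66.1 ± 6.84 CPM (2.24, SE 0.25, adjusted p = 3.64e-07) while SLC43A1 fell.

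**Figure D5:**
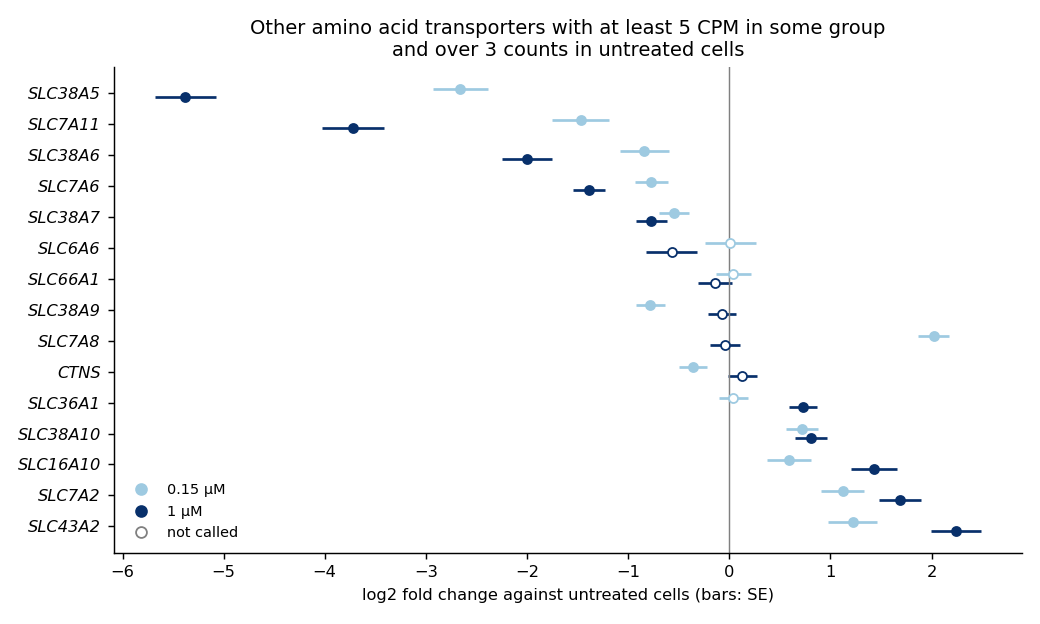
Log2 fold change against untreated cells (horizontal, with SE bars) at 0.15 μM (light) and 1 μM (dark) for the 15 other amino acid carriers with at least 5 CPM in some group and over 3 counts in untreated cells, white where not called. SLC38A5 lies at -5.38 and SLC43A2 at 2.24 at 1 μM, and SLC7A8 at 2.02 at 0.15 μM.

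Of 7 known partners and regulators of SLC6A19, 5 passed the filter, and at 1 μM 3 were called higher (38.8% of all genes) and 1 lower (27.5%). None of the 5 reached the filter level in all untreated libraries. CLTRN, a partner protein in the kidney with 25.5% of its exon bases under another gene of its strand, measured 0.201 ± 0.181 CPM without and 0.559 ± 0.0329 CPM with 1 μM martinostat (not called). Of the intestinal transcription factors, HNF4A and CDX2 had 0 counts in untreated cells and were at least 48.4-fold and 20.0-fold higher at 1 μM. Their means at 1 μM were still low, at 1.91 and 0.790 CPM. SOX9 did not pass the filter.

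Of 15 tested genes of the ATF4 programme, 5 were called higher (38.8% of all genes) and 5 lower (27.5%) at 1 μM, with a median log2 fold change of 0.24 beside 0.32 over all genes, so neither stood far from the background. ATF4 itself fell from 382 ± 37.9 to 153 ± 39.6 CPM (-1.32, SE 0.19, adjusted p = 6.09e-06), measured as mRNA and not as protein. TRIB3 (-2.70), the serine synthesis enzyme PSAT1 (-2.37) and ATF5 (-2.27) fell most, and the stress-response transcription factors ATF3 (2.72), CEBPB (2.06) and DDIT3 (1.68) rose most. Of the exon bases of DDIT3, 31.6% lie under the opposite strand. ASNS, asparagine synthetase, was at 2.23 ± 0.244 CPM in untreated cells and 2.35 ± 0.421 CPM at 1 μM (not called). Another gene of the same strand covers 49.3% of its exon bases, where reads may have been assigned to neither, so this low count may understate its mRNA.

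Of 23 genes of amino acid sensing by mTORC1, 10 were called higher (38.8% of all genes) and 6 lower (27.5%) at 1 μM, shares near the background, with a split of 13 and 3 with library totals or with TMM on abundant genes. SESN3, a sestrin and so a relative of the leucine sensor SESN2, rose from 1.38 ± 0.303 to 52.8 ± 0.596 CPM (5.25, SE 0.23, adjusted p = 7.40e-13), CASTOR2, of the arginine sensor family, rose from 34.0 to 225 CPM (2.73) and RRAGC, a Rag GTPase with 23.1% of its exon bases under another gene of its strand, rose from 15.7 to 40.1 CPM (1.35). The complex subunits MLST8 (-1.84) and RPTOR (-1.18) fell, as did NPRL3 (-1.35), of the complex that restrains the Rag GTPases. FLCN, folliculin, was called lower at 0.15 μM (-0.47) and higher at 1 μM (0.37). The first call was lost without untreated replicate 2 (-0.40) and under both other scalings (-0.11 and -0.21), and the second without untreated replicate 1 (0.40) or 3 (0.28) or 1 μM replicate 1 (0.32) or 2 (0.34), whereas the rise from 0.15 to 1 μM (0.84, adjusted p = 0.000115) kept its call under all alternatives run.

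Among 11 enzymes of glutamine and branched-chain amino acid metabolism, 4 were called higher (38.8% of all genes) and 4 lower (27.5%) at 1 μM, or 6 and 3 with the same 2 scalings, again near the background. BCAT1, which starts the breakdown of leucine, isoleucine and valine, fell from 450 ± 56.2 to 21.9 ± 2.81 CPM (-4.36, SE 0.18, adjusted p = 3.79e-13), and GOT2 (-1.51) and GLUD1 (-1.38), which pass glutamate into the citrate cycle, also fell. GLUL, which makes glutamine from glutamate, rose from 698 ± 62.0 to 2199 ± 32.8 CPM (1.66, SE 0.17, adjusted p = 5.11e-08), and the transaminase GPT2 rose by 1.41. GLS2 went from 1 to 54 counts, a ratio of 47.8 (95% counting interval 8.22 to 1921), but 77.1% of its exon bases lie under exons of the opposite strand, whose reads cannot be told apart from its own here.

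Most erythroid markers, which K562 cells are known to express, were lower at 1 μM. All 10 erythroid genes were detected, and their summed level fell from 3637 to 3981 CPM in untreated libraries to 851 to 980 CPM at 1 μM, with 8 of 10 called lower (27.5% of all genes), among them KLF1 (-6.83) and GATA1 (-4.12). HBG1 was not called, and HBE1, an embryonic globin at 13 counts over the untreated libraries and 42 at 1 μM, was called higher (edgeR adjusted p = 0.0490). The HBE1 libraries of these groups overlapped. Other genes of the same strand cover 90% of the exon bases of HBE1 and 55.6% of those of HBG2, where reads may have been assigned to neither. TFRC, the transferrin receptor, went from 1228 to 423 CPM at 0.15 μM and stayed between 373 and 485 CPM at the higher doses. Markers of small intestine and kidney epithelium, the tissues known for SLC6A19, summed to 155 to 175 CPM in untreated libraries, mostly EPCAM (141 ± 9.54 CPM), with FABP1, FABP2, SLC5A1 and SLC15A1 at 0, and to 54.9 to 67.9 CPM at 1 μM, with 6 of 8 tested called higher (38.8% of all genes), 3 of them without reaching the filter level in all untreated libraries, and EPCAM and VIL1 lower. Of the exon bases of VIL1, 44.2% lie under the opposite strand. At 0.15 μM VIL1 had been called higher (log2 fold change 0.89), as had CD3D (2.08) and LYZ (1.45) of the markers that follow. The 5 lymphocyte markers summed to 5.79 to 9.28 CPM in untreated libraries, 21.1 to 30.0 CPM at 0.15 μM and 10.0 to 13.2 CPM at 1 μM, where 1 of 4 tested was called higher and CD3D was called lower, with MS4A1 at 0 in untreated cells. The sum of 3 monocyte markers went from 7.22 to 9.27 CPM in untreated libraries to 24.6 to 32.6 CPM at 1 μM, where CSF1R (0.457 to 25.9 CPM) and CD14 were called higher, both without reaching that level in all untreated libraries, and LYZ, with 34.7% of its exon bases under the opposite strand, lower. The part of these changes in the levels of the carriers was not tested.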

How the data were processed

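Poly(A) RNA of 15 K562 libraries, 5 groups of 3, had been sequenced as paired ends. Per the labels and the methods of the study, the authors trimmed reads with Trim Galore 0.6.10 and Trimmomatic, aligned them to hg38 with HISAT2 2.2.1, handled alignments with SAMtools 1.21 and counted fragments per GENCODE gene with featureCounts 1.5.3; the strand setting is not given in the sources used here. The deposited table holds raw counts of 60649 genes, 23755510 to 32805574 per library. The FPKM values deposited by the authors divide by gene length from first to last base, so with introns, for all 10 carriers, and were used only in an alternative, as log2(FPKM + 1).

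Counts were analysed in R 4.3.3 with edgeR 4.0.16: filterByExpr (23711 genes kept), TMM factors, all 15 libraries in 1 fit with group as the only term, robust quasi-likelihood tests, and Benjamini-Hochberg adjustment over all genes tested. The method was tested on simulated data with few changed genes, as many raised as lowered. That run does not test the scaling under changes as broad as those seen here. Symbols matched 99.7% of identifiers. Positions came from a later GENCODE release (hg38) and sequences from RefSeq (GRCh38.p14). For SLC3A2 the annotation holds another version of the gene model.

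The carriers and gene lists were chosen with earlier results of these data known. Named were all carriers, genes within 250 kb of SLC6A19, the 8 genes most like it, and from each list the 3 highest and 3 lowest called changes at 1 μM. List genes called in opposite directions at 0.15 and 1 μM were also named, if the difference between these doses was called as well. A few genes that these rules name are not reported here. Alternatives were other scalings and filters, DESeq2 1.42.0, limma 3.58.1, fits of only the libraries compared, a replicate block and leaving out each library. P-values measure the spread between libraries labelled as biological replicates. The closest replicates differed by more than sampling noise (chi-square per degree of freedom 6.15). Equal replicate numbers deviated together in all 3 pairs only between 0.25 and 0.5 μM (correlations 0.406, 0.421 and 0.706), and over all 30 pairs from -0.172 to 0.706.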

Additional observations from a re-analysis of the deposited data

Results flagged for a closer look

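Carriers and gene lists, the cell type markers left out, were searched for changes of opposite sign at 0.15 and 1 μM against untreated cells. The search required a called edgeR difference between these doses and, for list genes, a call at both doses. SLC1A4, SLC38A2 and FLCN are reported here. SLC1A4 was not called at 0.15 μM, nor SLC38A2 at 1 μM. Of the markers, LYZ (1.45 and -2.15), CD3D (2.08 and -1.03) and VIL1 (0.89 and -0.62) were called in opposite directions at these doses. SLC1A4 changed by -1.14 between these doses on the log2 scale (SE 0.16, adjusted p = 1.44e-05), from 0.31 at 0.15 μM to -0.83 at 1 μM, with no overlap between the groups. SLC38A2 changed by 0.82 (SE 0.21, adjusted p = 0.00370), from -0.55 to 0.27, also with no overlap. FLCN changed by 0.84 (SE 0.15, adjusted p = 0.000115), from -0.47 to 0.37, and its call at 0.15 μM was lost with library totals (-0.11). Both doses were compared with the same untreated libraries, so the values at each dose are not independent of each other, while the difference between doses does not use those libraries' level.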

How the results depend on the processing

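For the 10 carriers, 1685 values under alternatives were set beside 67 values as reported: 1570 kept direction and side of the threshold (or, for SLC6A19, stayed within the spread), 52 lost a call, 28 gained one, 20 (of SLC6A19) moved by more than the spread and 15 reversed. Many of the alternatives left out a library of neither compared group. Such a library enters only through the shared filter, scaling and spread, so these runs could move a value little and raise the number kept. The number called lower at 0.15 μM, 8 of 9, was 1 with library totals, 3 with TMM on abundant genes (10 CPM or more), 3 with at least 10 counts required in every library and 2 with limma, and 5 to 8 when a library was left out. The number called higher at 0.15 μM, 0, was 1 (SLC1A4) with library totals, with TMM on abundant genes, with 10 counts in every library, with only the libraries compared, with limma, and, in an alternative chosen after seeing the data, with replicate 3 of 0.25 and of 0.5 μM both left out. At 0.25 μM limma called 1 (SLC1A4) higher. At 0.5 μM 1 (SLC38A2) was called higher with library totals, TMM on abundant genes, no filter, 10 counts in every library, only the libraries compared and limma, and 0 to 1 when a library was left out. At 1 μM 1 was called higher with library totals, TMM on abundant genes, 10 counts in every library and only the libraries compared. From 0.25 to 0.5 μM 0 were called higher with library totals, only the libraries compared and limma, and 0 to 1 when a library was left out. At 0.25 μM SLC1A4 reversed to 0.27 (library totals), 0.17 (TMM on abundant genes), 0.04 (10 counts in every library) and 0.19 (limma), and SLC38A2 to 0.25, 0.13 and 0.18 (library totals, TMM on abundant genes, limma). From 0.25 to 0.5 μM the near-0 values of SLC3A2 (-0.01) and SLC7A5 (-0.12) reversed: SLC3A2 to 0.02 with RLE size factors and with DESeq2, to 0.06 with replicate 3 of 0.25 and of 0.5 μM both left out, and to 0.00, 0.06, 0.03 and 0.15 without 0.15 μM replicate 3, 0.25 μM replicate 1 or 2 or 0.5 μM replicate 3 (range -0.18 to 0.15 when a library was left out), and SLC7A5 to 0.08 without 0.5 μM replicate 3 (range -0.31 to 0.08). The cause was not tested, but these scalings moved the median of all genes from 0.28 to 0.64 and 0.54 at 0.15 μM and from 0.32 to 0.67 and 0.70 at 1 μM. Genes called lower over the whole table went from 4591 to 2118 and 2891 at 0.15 μM and from 6514 to 4777 and 4738 at 1 μM, and those called higher from 7557 to 9582 and 9074 and from 9193 to 10808 and 11102.

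With replicate number as a block in the fit of all libraries, the numbers of carriers called lower (8, 7, 8 and 8 of 9 with rising dose) were those without it. Between 0.25 and 0.5 μM, libraries of equal replicate number deviated together, though the labels state no pairing. A fit of the libraries of these doses alone with the block, added after seeing the data, called 6 lower and 1 higher, against 5 and 1. The added call was SLC1A5 (-0.59), and no other carrier's call changed. Levels near 1 CPM, as for SLC6A19 at 0.5 and 1 μM, rest on 20 to 42 counts per library, which limits their precision.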
